A study of Mus musculus with 22 samples.

Results

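The genes described here encode potassium, sodium, calcium and chloride channels and the transient receptor potential (TRP) channels of the adult mouse choroid plexus (ChP), the epithelium that secretes cerebrospinal fluid (CSF). They were chosen by symbol alone: all protein-coding genes whose symbols begin as those of the Kcn, Scn, Cacn, Clcn, Trpc, Trpm, Trpv and Ano families do, without regard to their values. The rule gave 172 of the 33984 genes in the tables, out of 176 such genes in the annotation. The potassium channel genes comprised 40 voltage-gated alpha subunits, 8 calcium- or sodium-activated channels, 14 inward rectifiers, 14 two-pore channels and 17 auxiliary subunits. There were 10 alpha and 4 beta subunits of sodium channels, and 10 alpha1, 4 alpha2delta, 4 beta and 6 gamma subunits of calcium channels. The rest were 9 Clcn genes, 9 anoctamins and 9, 8 and 6 genes of the Trpc, Trpm and Trpv families. The symbol rule also took in Trpc4ap and Trpc5os, which are not channels.

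RNA was sequenced from 14 pools of ChP tissue, 2 pools (A and B) in each of 7 groups, each pool holding several mice. In the conditional model, Otx2 lox/lox mice of 3 months (strain S129) received Cre-Tat, a cell-permeable recombinase, or vehicle into the cerebral ventricles, and the ChP of the lateral ventricles (LV) and of the fourth ventricle (4V) was collected apart 15 days later. In the constitutive model (strain B6D2), the 4V ChP of mice labelled Otx2+/-, Otx2+/AA and wildtype was collected. The letters AA are not explained by the labels, and the Otx2+/- animals carried a GFP allele according to the study's methods. The Cre-Tat and vehicle groups share the floxed alleles and the injection, and no cell-type promoter restricts an injected recombinase. Model, strain, injection and sequencing run coincide and cannot be told apart.

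Several facts of the whole series bear on each result. The targeted gene, Otx2 (chr14:48657677-48673819, mm10), was higher rather than lower in the pools labelled as knockdown. Its level in counts per kilobase of transcript per 1000000 TMM-scaled counts (CPM per kb) was 180 and 219 in vehicle LV, 576 and 478 in Cre-Tat LV, 180 and 183 in vehicle 4V and 561 and 570 in Cre-Tat 4V. In the constitutive model it was 169 and 141 in wildtype, 479 and 413 in Otx2+/- and 158 and 166 in Otx2+/AA. These are whole-transcript counts of the transcript with most counts, in which the deleted part cannot be counted apart. All 8 Otx2 transcripts with a mean of 10 counts or more were higher in Cre-Tat in both ventricles. In Otx2+/- 7 of them were higher and 1 was lower (log2 ratio of means -0.531). The study's own check of the knockdown used the deleted exon by itself and, for Cre-Tat, quantitative PCR of each ChP. The study reported fewer reads of that exon under knockdown in both ventricles and in the constitutive model. It also lists Otx2 among the genes significantly lower in both models, and cites earlier work for reduced OTX2 protein in each. The counts used here do not give the exon, PCR or protein measures. The whole-transcript level therefore does not settle whether the labels hold, so groups are called by their labels throughout and each direction below is a direction between labels. Of the 16 files of the conditional model, 14 are attached to a sample whose library number is not their own. Files were taken here by library number, because the runs that share one agreed within sampling noise (chi-square per degree of freedom 1 to 1.04 in 8 pairs, against 5.09 to 79.1 in the 112 other pairs). Taken as attached, 50 channel genes in LV and 55 in 4V passed the threshold, and 2 and 3 of the calls given below kept their direction and call. The share of all genes passing in that grouping is not given here, so these counts are not read as results about the channels. Pools held 22750019 to 50088408 counts over all transcripts, and channel genes took 0.395% to 0.643% of the counts assigned to genes. The ventricle labels fitted the regional genes: Emx2 (forebrain) was at 1.61 to 1.95 CPM per kb in the 4 LV pools and at 0 to 0.0931 in the 10 pools from 4V, whereas Hoxa2 (hindbrain) was at 0 to 0.0538 in LV and at 0.626 to 1.85 in 4V. The epithelial markers Ttr, Folr1, Kl, Clic6, Htr2c, Enpp2 and Aqp1 were present in all pools and together took 84988 to 227961 CPM. With 2 pools a group, p-values measure only the spread between these pools, and an exact permutation test of 2 against 2 cannot go below 0.333. In bulk tissue, fewer cells of a type and less RNA per cell cannot be told apart.

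As background, ChP epithelial cells secrete CSF by moving sodium, chloride and bicarbonate from blood to ventricle, and potassium in the opposite direction. Potassium channels recycle the ion taken in by the Na+/K+ pump and set the membrane potential, chloride channels provide a path for the anion and regulate volume, and TRP channels admit calcium or magnesium in response to osmotic, thermal, lipid or mechanical stimuli. Many of the genes named here are better known from neurons and muscle, where voltage-gated alpha subunits form the pore and beta, alpha2delta and auxiliary subunits control its trafficking and gating.

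A few genes dominated the channel repertoire of the control ChP. Over the 4 vehicle pools, 39 of the 172 genes had a mean level of 1 CPM per kb or more, 81 were under 0.1, and 54 genes never reached 10 counts in any of the 14 pools. Kcne2, a single-span auxiliary subunit that assembles with potassium channel pores, was at 498 and 414 in vehicle LV and 684 and 508 in vehicle 4V (526.1 ± 113.2, SD, n = 4). Kcnj13 (Kir7.1), an inward rectifier of transporting epithelia, was at 529.1 and 550.0 in LV and 476 and 450 in 4V (501 ± 46.2). Trpm3, a heat- and steroid-sensitive cation channel, was at 457 and 342 in LV and 579 and 583 in 4V (490 ± 115). The ranges of these 3 genes overlapped, so their order is not resolved. Kcnk1 (TWIK-1), a two-pore potassium channel, followed at 232 ± 30.4, below every vehicle value of the first 3 genes. Together, the 4 genes took 65.8% to 79.3% of all channel counts in a pool.

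After these, levels dropped to 49.6 ± 4.38 for Trpv4, the osmosensitive TRP channel, 31.9 ± 2.68 for Trpm7, a magnesium- and calcium-conducting channel fused to a kinase, and 30.5 ± 2.74 for Clcn3, a chloride/proton exchanger of endosomes (SD over the 4 vehicle pools). Trpv4 did not overlap its neighbours in this order, whereas Trpm7 and Clcn3 did overlap. The scramblase and ion channel Ano6 was at 19.1 ± 1.8 and the exchanger Clcn4 at 17.96 ± 0.878. Next came Kcnh2 (ERG1, 14.95 ± 1.79), Ano10 (13.4 ± 0.858), Trpc4ap (12.8 ± 0.681) and Trpc1 (12.5 ± 0.708), each of which overlapped its neighbour in this order. Kcnh1 (EAG1) was at 7.74 ± 0.222, Cacnb4 at 5.96 ± 2.02, Clcn5, an endosomal exchanger known from the proximal tubule, at 5.68 ± 1.04, and Clcn7, of lysosomes, at 5.32 ± 0.164. The alpha2delta subunits Cacna2d1 (4.97 ± 1.29), Cacna2d3 (3.64 ± 2.55) and Cacna2d2 (3.52 ± 0.532) closed the first 20. The large SD of Cacna2d3 reflects 6.50 and 5.06 in LV against 1.64 and 1.35 in 4V.

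Several channels with known roles in ChP epithelium were low in these pools. Kcnq1 was at 0.224 ± 0.116, Kcna1 at 0.220 ± 0.0802, Kcna3 at 0.0945 ± 0.0417 and Kcna6 at 0.0332 ± 0.0279, which placed them at ranks 67, 68, 93 and 119. Kcnma1 (BK) was at 0.217 ± 0.150, Kcnn4 (intermediate-conductance, calcium-activated) at 0.983 ± 0.159 and Clcn2, a plasma membrane chloride channel, at 2.10 ± 0.374. Among calcium pores, L-type Cacna1d was at 1.36 ± 0.124 and T-type Cacna1g at 0.280 ± 0.0982. Kcna3 had 1 to 10 counts in each of the 14 pools, too few for a change to be detectable at this depth.

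**Figure D1:**
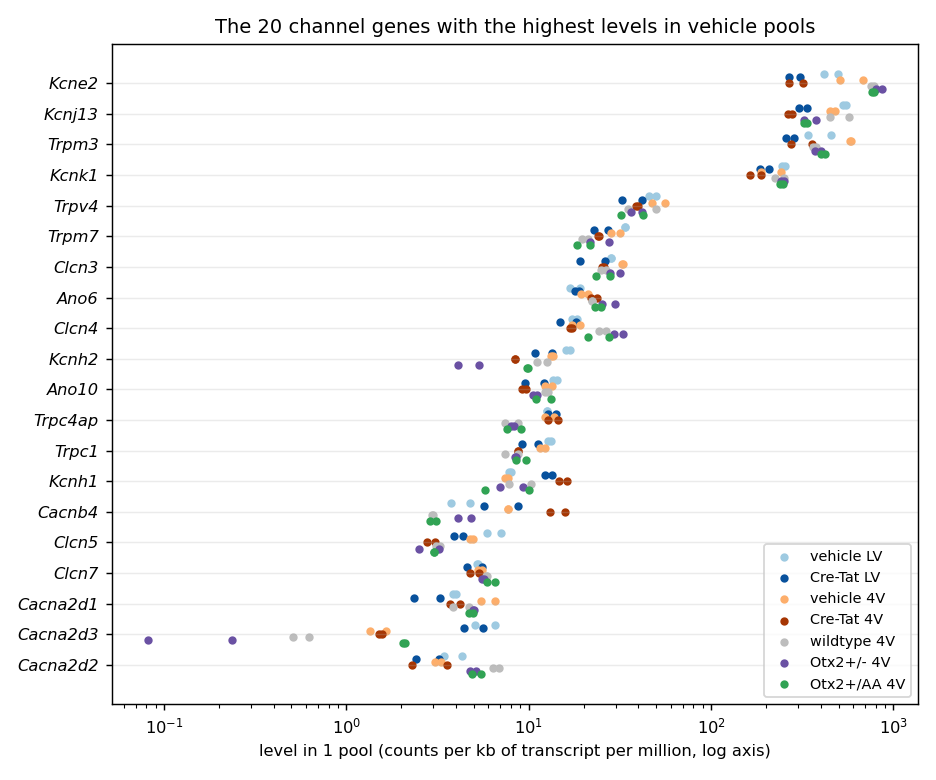
Level of each of the 20 most abundant channel genes in each of the 14 pools, as CPM per kb on a log axis, with 1 point per pool and colours for the 7 groups. Kcne2, Kcnj13, Trpm3 and Kcnk1 stand at 164 or higher in all pools, and Cacna2d3 spreads most, from 0.0820 in Otx2+/- pool A to 6.50 in vehicle LV pool A.

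The first comparison asked which channel genes differ in the LV ChP between Cre-Tat and vehicle. Cacnb3, a cytoplasmic beta subunit of high-voltage-activated calcium channels, was 13.6-fold higher, Kcnh1 was 64.3% higher, while Kcnj13, Kcnd3, Kcne2 and Clcn5 fell. Kcnj13 fell by 40.5% and Clcn5, the least of these, fell by 36.1%. The quasi-likelihood test of edgeR was run on 15002 genes, with p-values adjusted by the Benjamini-Hochberg method. It included 97 channel genes, of which 9 passed an adjusted p of 0.05, with 5 higher and 4 lower. Among all genes tested 3.24% passed, 2.21% higher and 1.03% lower, against 9.28% of the channel genes tested, 5.15% higher and 4.12% lower. The median log2 fold change was 0.13 over the channel genes tested and 0.00 over all genes.

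Cacnb3 (chr15:98630840-98644529) was at 0.266 and 0.614 CPM per kb in the vehicle LV pools and at 6.22 and 5.71 in the Cre-Tat LV pools. The groups lay far apart, and the log2 fold change was 3.77 ± 0.31 (SE, adjusted p = 1.44e-05). Both Cacnb3 transcripts that held a mean of 10 counts or more moved the same way. The gene is on the list of largest changes that the study drew from these same samples, so that its direction is no independent evidence. Kcnh1, a voltage-gated potassium channel known from brain and proliferating cells, was at 7.79 and 7.98 in vehicle and 13.5 and 12.3 in Cre-Tat (log2 fold change 0.72 ± 0.16, adjusted p = 0.0221).

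The decreases concerned 2 of the most abundant channel genes, Kcnj13 and Kcne2, and 2 of lower level, Clcn5 and Kcnd3. Kcnj13 was at 529.1 and 550.0 in vehicle LV and at 304 and 336 in Cre-Tat LV (log2 fold change -0.75 ± 0.16, adjusted p = 0.0195). Kcne2 went from 498 and 414 to 266 and 307 (-0.67 ± 0.17, adjusted p = 0.0459). Clcn5 was at 5.94 and 7.04 in vehicle and 4.38 and 3.89 in Cre-Tat (-0.65 ± 0.17, adjusted p = 0.0488), and Kcnd3, a pore of the transient A-type potassium current, was at 4.14 and 4.69 against 2.82 and 2.58 (-0.70 ± 0.17, adjusted p = 0.0338). The adjusted p-values of Kcne2, Clcn5 and Kcnd3 lay close to the threshold. With libraries scaled by total counts in place of TMM, none of the 4 decreases passed, at an adjusted p of 0.0685 for Kcnj13, 0.146 for Kcne2, 0.132 for Kcnd3 and 0.186 for Clcn5, and all 5 increases did. Exons of Kcnj13 overlap Gigyf2 and those of Kcnd3 overlap Kcnd3os on the other strand, and whether counting used the strand is not stated. Trpm3 was at 457 and 342 against 257.8 and 285.9, a log2 fold change of -0.55 ± 0.18 that missed the threshold (adjusted p = 0.131).

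The remaining 3 increases rested on few reads. Kcnk2 (TREK-1), a mechanosensitive two-pore channel, had 12 and 13 counts in vehicle LV and 44 and 88 in Cre-Tat LV (log2 fold change 2.24 ± 0.49, adjusted p = 0.0223). Scn1a, a neuronal sodium channel pore, had 15 and 9 counts against 83 and 35 (2.08 ± 0.50, adjusted p = 0.0352). Kcnj9 (GIRK3), a neuronal G-protein-gated inward rectifier, had 2 and 0 counts against 26 and 25 (4.34 ± 0.93, adjusted p = 0.0195). The ratio was 22.5, with an exact 95% binomial interval of 5.91 to 190 that covers counting error only. Kcnj9 could pass the expression filter only through the Cre-Tat pools, where it was high, so its call is no separate support for a rise. Scn1a likewise could not have passed the filter on the vehicle pools alone. Of 9 neuronal markers tested in LV, 2 rose past the threshold (Snap25 and Slc17a6) and none fell, where 2.21% of all genes tested rose. The median log2 fold change of the 9 was 1.13. Syt1 alone among them had a negative value (-0.315 ± 0.186, adjusted p = 0.519). The summed level of the 10 markers was 20.2 and 21.1 CPM in vehicle and 32.9 and 28.6 in Cre-Tat. The defining neuronal gene Rbfox3 was at 0.0465 to 0.104 CPM per kb in these 4 pools. The part of neuronal RNA in the increases of Kcnk2, Scn1a and Kcnj9 was not tested.

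These LV calls depended on single pools. Leaving out Cre-Tat pool A, Cre-Tat pool B, vehicle pool A or vehicle pool B left 6, 10, 6 and 2 channel genes past the threshold. Cacnb3 was the 1 of the 9 genes that passed in all 4 cases, with log2 fold changes of 3.27 to 4.48. Without vehicle pool B, the adjusted p was 0.163 for Kcnj13, 0.0897 for Kcne2, 0.184 for Kcnh1, 0.277 for Kcnd3, 0.46 for Clcn5, 0.117 for Kcnj9 and 0.105 for Scn1a. Without vehicle pool A it was 0.122 for Kcnj13, 0.542 for Kcne2, 0.264 for Kcnh1, 0.0667 for Kcnd3 and 0.0989 for Clcn5. Without Cre-Tat pool A it was 0.0788 for Kcne2, 0.255 for Scn1a and 0.0697 for Kcnj9, and without Cre-Tat pool B it was 0.213 for Kcnk2, 0.0738 for Clcn5, 0.0509 for Kcnd3 and 0.0692 for Kcnj9. All these genes kept their direction.

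In the 4V ChP, where the same question was asked, more channel genes passed than in LV, although none passed in the test of the difference between ventricles. Cacnb3 was 42.8-fold higher in the pools labelled Cre-Tat, and the beta subunits Cacnb4 and Cacnb2 were higher as well, whereas the beta subunit Cacnb1 did not pass. Kcnt1, Clcn2 and Kcnh1 were 2.03- to 2.87-fold higher, whereas among the abundant genes Kcne2 fell by 50.4%, Trpm3 fell by 45.8% and Kcnj13 fell by 41.4%. Of 83 channel genes tested 15 passed the threshold, 6 higher and 9 lower (edgeR). That is 18.1% of those tested, 7.23% higher and 10.8% lower, against 10.7% of all 14550 genes tested, 5.7% higher and 4.98% lower. The median log2 fold change was -0.10 over the channel genes tested and 0.01 over all genes.

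Among the 4 beta subunits of calcium channels, 3 rose in 4V and 1, Cacnb1, did not pass, with a log2 fold change of -0.383. Cacnb3 was at 0.472 and 0.477 in vehicle 4V and at 18.8 and 21.9 in Cre-Tat 4V (log2 fold change 5.42 ± 0.22, adjusted p = 1.8e-11), which made it the highest of the 4 in the Cre-Tat pools and the lowest in the vehicle pools. Cacnb4 was at 7.69 and 7.67 in vehicle and 13.1 and 15.7 in Cre-Tat (0.91 ± 0.14, adjusted p = 0.000255), and its exons overlap A430018G15Rik on the other strand. Cacnb2 was at 1.99 and 2.39 against 3.88 and 4.34 (0.92 ± 0.18, adjusted p = 0.00293). In LV, Cacnb4 had a log2 fold change of 0.77 ± 0.20 (adjusted p = 0.0595) and Cacnb2 one of 0.30 ± 0.25 (adjusted p = 0.702), both short of the threshold. None of the calcium channel pores (Cacna1 genes) passed in either ventricle, with 7 tested in LV and 6 in 4V. The alpha2delta subunit Cacna2d1 fell in 4V, from 5.44 and 6.57 to 3.69 and 4.19 (-0.60 ± 0.17, adjusted p = 0.026). Cacna2d3 and Cacna2d2 had log2 fold changes of 0.04 ± 0.24 and -0.12 ± 0.19.

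Potassium channel genes moved both ways in 4V. Kcnh1 rose from 7.73 and 7.44 to 14.6 and 16.2 (log2 fold change 1.02 ± 0.13, adjusted p = 6.14e-05). Kcnt1, a sodium-activated potassium channel, was at 0.315 and 0.440 in vehicle and 0.886 and 1.25 in Cre-Tat (1.52 ± 0.30, adjusted p = 0.0025). Kcne2 fell from 684 and 508 to 320 and 269 (-1.01 ± 0.17, adjusted p = 0.000772), and Kcnj13 from 476 and 450 to 263 and 278 (-0.77 ± 0.14, adjusted p = 0.00152). Both were thus lower in the Cre-Tat pools of both ventricles. Kcnh2, the cardiac repolarising channel, was at 13.6 and 13.3 against 8.46 and 8.43 (-0.67 ± 0.13, adjusted p = 0.00278), while its relative Kcnh1 moved the other way. Kcnd3 fell from 2.16 and 2.83 to 0.924 and 1.48 (-1.04 ± 0.21, adjusted p = 0.00361). Kcnd1, another A-type pore, had 20 and 12 counts in vehicle and 4 and 5 in Cre-Tat (-2.43 ± 0.59, adjusted p = 0.0115). Kcnd1 could pass the expression filter only through the vehicle pools, where it was high. Kcnk1 did not pass in either ventricle (-0.34 ± 0.16 in LV and -0.27 ± 0.16 in 4V).

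Of the TRP channels, Trpm3 alone passed in 4V. It was at 579 and 583 in vehicle and at 273 and 356 in Cre-Tat (log2 fold change -0.88 ± 0.18, adjusted p = 0.00327), and all 6 of its transcripts with a mean of 10 counts or more had lower means in Cre-Tat. Its exons overlap C330002G04Rik on the other strand. Trpv4 and Trpm7 had log2 fold changes of -0.39 ± 0.14 (adjusted p = 0.08) and -0.31 ± 0.13 (adjusted p = 0.18), and Trpc1 one of -0.45 ± 0.14 (adjusted p = 0.0511). Chloride transport genes split. Clcn2 rose from 2.36 and 2.37 to 5.63 and 4.41 (1.09 ± 0.19, adjusted p = 0.000927), with exons that overlap Fam131a on the other strand. Clcn5 fell from 4.78 and 4.97 to 2.76 and 3.04 (-0.74 ± 0.14, adjusted p = 0.00205). Clcn3 (-0.36 ± 0.13), Clcn4 (-0.09 ± 0.13) and Clcn7 (-0.10 ± 0.16) did not pass. Ano2, a calcium-activated chloride channel, had 33 and 39 counts in vehicle and 5 and 29 in Cre-Tat (-1.76 ± 0.51, adjusted p = 0.032), with the Cre-Tat pools far apart, and Ano6 (0.17 ± 0.13) and Ano10 (-0.44 ± 0.15) did not pass. Ano2 could not have passed the expression filter on the Cre-Tat pools alone. No sodium channel gene passed in 4V among 10 tested (6 alpha, 4 beta).

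The 4V calls were less dependent on single pools: 12 to 15 channel genes passed with any 1 pool left out, and 12 of the 15 passed in all 4 cases. The exceptions were Kcnd1 (adjusted p = 0.0799 without Cre-Tat pool A, 0.0647 without Cre-Tat pool B and 0.202 without vehicle pool A), Ano2 (0.158 without Cre-Tat pool A, where the log2 fold change was -1.04 in place of -1.76, and 0.0799 without vehicle pool B) and Cacna2d1 (0.0711 without Cre-Tat pool A and 0.215 without vehicle pool B). The epithelial markers moved in the same direction as the abundant channel genes. All 7 fell in 4V and 3 of 7 (Htr2c, Enpp2 and Aqp1) in LV. Their summed level was 182148 and 215922 CPM in vehicle 4V against 84988 and 96748 in Cre-Tat 4V, and 219300 and 227961 against 121442 and 162431 in LV. Ttr was per kb the highest of the 7 in each of these pools, so the sums are not an even measure of the 7 genes. The study calls Ttr a known direct target of OTX2. Htr2c, an epithelial receptor gene, had log2 fold changes of -0.97 ± 0.16 in LV and -1.25 ± 0.15 in 4V. The part of epithelial content in the decreases of Kcne2, Kcnj13 and Trpm3 was not tested. Macrophage markers rose in 4 of 6 tested in 4V and 1 of 6 in LV, and ependymal markers in 2 of 4 in each. Astrocyte markers moved both ways, 2 of 5 higher and 1 lower in each ventricle, 1 oligodendrocyte marker (Cnp) rose and 1 fibroblast marker (Pdgfra) fell in both, and no mural marker passed. In 4V, 1 endothelial marker (Plvap) rose and 1 neuronal marker (Syt1) fell, and in LV the T cell gene Cd3g rose. Their part in the channel results was not tested.

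**Figure D2:**
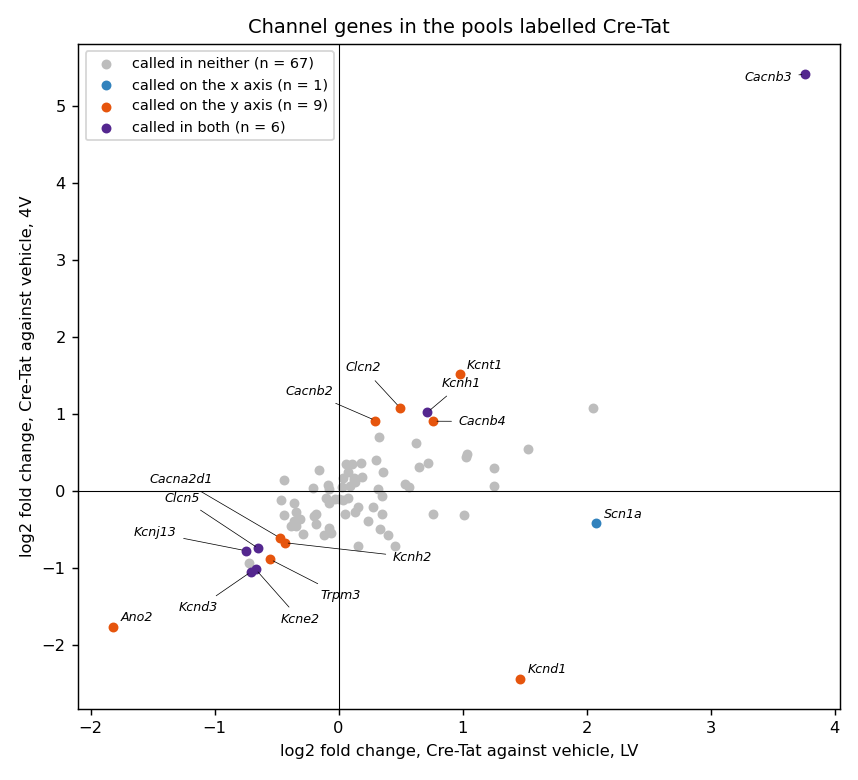
Log2 fold change between Cre-Tat and vehicle in LV (x axis) and in 4V (y axis) for the 83 channel genes tested in both, with 1 point per gene and colours for the calls. Cacnb3 lies apart at 3.77 and 5.42, and the 6 genes called in both ventricles have the same sign in both. The matching share over all genes is not given here.

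Both ventricles called 6 channel genes, with the same direction in each: Cacnb3 and Kcnh1 higher, and Kcne2, Kcnj13, Kcnd3 and Clcn5 lower. The share of all genes called in both ventricles is not given here, so this overlap is not read as a trait of the channel genes. The difference between ventricles was tested as an interaction of Cre-Tat and ventricle, and none of 98 channel genes passed in edgeR (6 at an unadjusted p under 0.05) or in DESeq2, where 0.00642% of all 15565 genes passed in edgeR. The interaction of Cacnb3, -1.65 ± 0.43 on the log2 scale, had an adjusted p of 1. Kcnd1, which had 4 to 5 counts in the Cre-Tat 4V pools, showed log2 fold changes of opposite sign (1.46 in LV, -2.43 in 4V), with an interaction of 3.90 ± 0.79 and an adjusted p of 0.392.

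The promoters of 3 genes that moved in both ventricles are shown from RefSeq (GRCm38.p6), since OTX2 is a DNA-binding homeoprotein and these genes had the largest levels or the largest change. Each runs 5′ to 3′ from 250 bases before the annotated start, with the first 10 transcribed bases in capitals: Kcne2 at chr16:92292139-92292398 (plus strand), Kcnj13 at chr1:87394720-87394979 (minus strand) and Cacnb3 at chr15:98632078-98632337 (plus strand). The annotated start lay 0, 0 and 48 bases from that of the transcript counted here.
Kcne2: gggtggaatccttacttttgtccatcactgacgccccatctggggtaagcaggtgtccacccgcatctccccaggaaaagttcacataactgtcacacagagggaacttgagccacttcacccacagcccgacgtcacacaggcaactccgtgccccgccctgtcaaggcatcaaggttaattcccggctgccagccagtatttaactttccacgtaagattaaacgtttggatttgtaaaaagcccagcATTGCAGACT
Kcnj13: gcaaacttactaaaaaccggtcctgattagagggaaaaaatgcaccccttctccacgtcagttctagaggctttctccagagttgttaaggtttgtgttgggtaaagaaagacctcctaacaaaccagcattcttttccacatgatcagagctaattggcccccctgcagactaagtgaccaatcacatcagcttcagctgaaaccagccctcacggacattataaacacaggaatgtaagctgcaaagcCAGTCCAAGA
Cacnb3: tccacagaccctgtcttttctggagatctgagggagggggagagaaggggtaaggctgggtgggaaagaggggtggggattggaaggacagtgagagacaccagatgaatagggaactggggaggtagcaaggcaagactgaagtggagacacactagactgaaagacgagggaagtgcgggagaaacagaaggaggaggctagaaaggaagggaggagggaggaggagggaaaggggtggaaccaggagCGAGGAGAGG

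Windows of 250 bases before to 50 after the start were matched by symbol for 132 of the 172 channel genes. TAATCC, the core letters recognised by OTX-type homeodomains, was searched on both strands, where the reverse strand reads GGATTA. A second homeodomain core, TAATTA, reads the same on both strands, and matches to these cores may overlap by a few letters. TAATCC was in 9 of the 132 channel genes (6.82%) and in 8.14% of all 27025 genes with a window, and TAATTA in 2 (1.52%) and 6.12%. Neither was in the windows of Kcne2, Kcnj13, Cacnb3, Kcnh1, Kcnd3, Clcn5 or Trpm3. Of the 29 channel genes called in any comparison between groups, 26 had a window and 5 held TAATCC: Ano2, Ano3, Kcng4, Kcnj9 and Scn7a. The stretches around it are given 5′ to 3′ with the match in capitals, for Ano2 at chr6:125690340-125690385 (plus strand), Kcng4 at chr8:119635671-119635705 (minus), Kcnj9 at chr1:172329394-172329439 (minus) and Scn7a at chr2:66785113-66785158 (minus); in Ano3 the match lies after the start.
Ano2: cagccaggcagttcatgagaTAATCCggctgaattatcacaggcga
Kcng4: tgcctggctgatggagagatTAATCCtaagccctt
Kcnj9: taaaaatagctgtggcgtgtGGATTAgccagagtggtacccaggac
Scn7a: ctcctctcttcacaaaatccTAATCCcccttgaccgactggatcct

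The match in Kcng4 spans the annotated start, and that in Scn7a begins 228 bases before it. A match of these letters is a description of the window and not a binding site.

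The constitutive model asked which channel genes differ in the 4V ChP of Otx2+/- mice. Kcng4, a modifier subunit of Kv2 potassium channels, was 5.03-fold higher than in wildtype, Kcnt1 4.22-fold and Kcnma1 3.70-fold, and Kcnh2 fell by 60.2%. In edgeR's test 5 of 88 channel genes passed, 4 higher and 1 lower, or 5.68% (4.55% and 1.14%), against 3.53% of all 14573 genes tested (1.78% higher and 1.75% lower). The share that was lower is near that of all genes. Median log2 fold changes were 0.11 for the channel genes and 0.00 for all genes.

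Kcng4 was at 0.713 and 0.606 in wildtype and at 3.59 and 3.05 in Otx2+/- (log2 fold change 2.33 ± 0.20, adjusted p = 0.000797). Kcnh2 fell from 11.1 and 12.6 to 4.10 and 5.34 (-1.33 ± 0.15, adjusted p = 0.00263), and all 5 of its transcripts with enough counts were lower. Kcnma1, the pore of the large-conductance BK channel, had 13 and 15 counts in wildtype and 61 and 50 in Otx2+/- (1.89 ± 0.35, adjusted p = 0.0235). Kcnt1 had 7 and 15 counts against 43 and 57 (2.08 ± 0.45, adjusted p = 0.0421). It could not have passed the expression filter on the wildtype pools alone, so its call is no separate support for a rise. Scn7a, the atypical sodium-sensing channel Nax of glia and circumventricular organs, rose from 2.21 and 2.02 to 3.88 and 3.45 (0.80 ± 0.14, adjusted p = 0.0202).

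The most abundant channel genes did not pass in Otx2+/- pools. Kcne2 was at 757 and 781 in wildtype against 799 and 864 (0.11 ± 0.12, adjusted p = 0.682), and Trpm3 at 363 and 374 against 401 and 372 (0.07 ± 0.13, adjusted p = 0.821). Kcnj13 was at 574 and 447 against 377 and 325 (-0.54 ± 0.15, adjusted p = 0.103). Cacnb3 was at 0.436 and 0.291 against 0.984 and 1.10 (1.51 ± 0.35, adjusted p = 0.0581), Cacnb4 at 2.99 and 2.93 against 4.83 and 4.08 (0.59 ± 0.14, adjusted p = 0.0542) and Cacnb2 at 1.12 and 1.08 against 2.06 and 1.84 (0.82 ± 0.19, adjusted p = 0.0599). These 3 beta subunits did not pass the threshold, and neither did Cacnb1, which had a log2 fold change of -0.255. Cacna2d3 had 36 and 41 counts in wildtype and 6 and 17 in Otx2+/- (-1.82 ± 0.49, adjusted p = 0.0891).

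Leaving out Otx2+/- pool A left 2 channel genes, leaving out Otx2+/- pool B or wildtype pool A left 7, and leaving out wildtype pool B left 11. Kcng4 and Kcnh2 passed each time. The adjusted p of Scn7a was 0.0681 and that of Kcnma1 0.115 without Otx2+/- pool A, and that of Kcnt1 was 0.0553 and 0.0999 without Otx2+/- pools A and B. Of the epithelial markers Ttr and Folr1 fell in Otx2+/- pools and 5 did not pass, with a summed level of 122944 and 131035 CPM against 196633 and 186365 in wildtype. Ttr, per kb the highest of the 7, was at 64431 and 75797 CPM per kb against 124645 and 117295. Enpp2 was next, at 15283 and 13523 against 15870 and 15402, and did not pass. The sum is therefore not an even measure of the 7 genes, and the study calls Ttr a known direct target of OTX2. Fibroblast (Col3a1), astrocyte (Aqp4) and macrophage (Mrc1) markers rose in 1 each of 5, 5 and 6 tested. Their part in the channel results was not tested.

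Against the same 2 wildtype pools, the Otx2+/AA pools differed in 1 channel gene. Cacna2d3, an alpha2delta subunit that carries calcium channels to the membrane, was at 0.509 and 0.624 in wildtype and 2.04 and 2.10 in Otx2+/AA, 3.63-fold higher (log2 fold change 1.86 ± 0.25, adjusted p = 0.00639, edgeR). It passed with each pool left out, at log2 fold changes of 1.72 to 2.02, and without wildtype pool B 5 channel genes passed. In a fit with all 3 groups of that run, the adjusted p was 0.0641. Of the 88 channel genes tested 1.14% passed, against 0.345% of all 14494 genes, 0.172% higher and 0.172% lower. Kcnj13 was at 324 and 336 in Otx2+/AA (-0.64 ± 0.14, adjusted p = 0.087). Kcng4 was at 1.02 and 1.19 (0.73 ± 0.27, adjusted p = 0.386), between wildtype and Otx2+/-, and Kcnh2 at 9.80 and 9.95 (-0.28 ± 0.13, adjusted p = 0.586). None of the marker lists had a member that passed. The Otx2+/- and Otx2+/AA comparisons share their wildtype pools, so that their values are set side by side only.

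**Figure D3:**
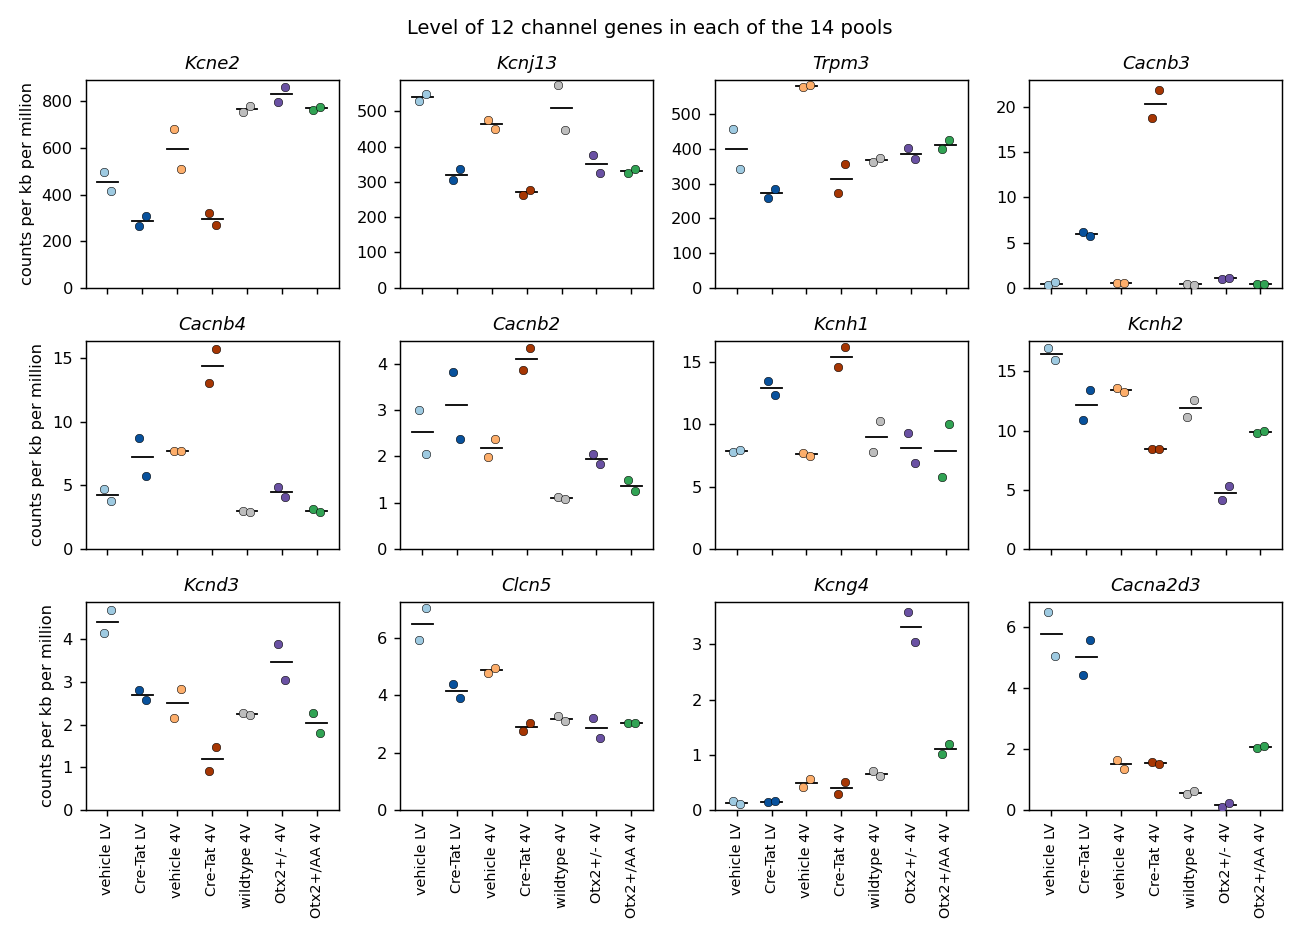
Level of 12 channel genes (CPM per kb, axis from 0) in each of the 14 pools, with 1 point per pool and a line at the mean of the 2 pools of a group. Cacnb3 reaches 18.8 and 21.9 in the Cre-Tat 4V pools and stays at 1.10 or below outside the Cre-Tat groups, while Kcng4 is highest in the 2 Otx2+/- pools, at 3.59 and 3.05.

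Whether the response in 4V differed between models was tested as an interaction of the knockdown label and the model. Of 93 channel genes 6 passed (edgeR), or 6.45%, against 1.64% of all 15327 genes tested. Cacnb3 rose more in the Cre-Tat than in the Otx2+/- pools, by 3.90 ± 0.38 on the log2 scale (adjusted p = 0.000329). Kcnh1 differed by 1.16 ± 0.23 (adjusted p = 0.025), with log2 fold changes of 1.02 in the Cre-Tat and -0.14 in the Otx2+/- pools. Kcne2 (-1.14 ± 0.22, adjusted p = 0.0229), Trpm3 (-0.97 ± 0.21, adjusted p = 0.0397) and Kcnd3 (-1.68 ± 0.30, adjusted p = 0.0148) were lower in Cre-Tat and not in Otx2+/- pools, where Kcnd3 was at 3.89 and 3.05 against 2.28 and 2.23 in wildtype (0.63 ± 0.16, adjusted p = 0.0771). Kcng4 differed by -2.61 ± 0.43 (adjusted p = 0.00967), having a log2 fold change of -0.27 in Cre-Tat and 2.33 in Otx2+/- pools. The control levels differed too: vehicle and wildtype 4V pools stood at 581 ± 2.51 and 369 ± 8.06 for Trpm3 and at 596 ± 124 and 769 ± 17.1 for Kcne2 (SD, n = 2). Cacnb3 alone passed with each of the 8 pools left out. Of the others, Kcnd3 and Kcng4 were lost without vehicle pool B (adjusted p = 0.0937 and 0.08), Kcne2 in 4 of 8 cases (up to 0.12), Kcnh1 in 5 (up to 0.131) and Trpm3 in 6 (up to 0.145). Without vehicle pool A, vehicle pool B or wildtype pool B, 3, 2 and 3 channel genes passed. Because model, strain, injection and run coincide, their parts in these differences cannot be told apart.

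**Figure D4:**
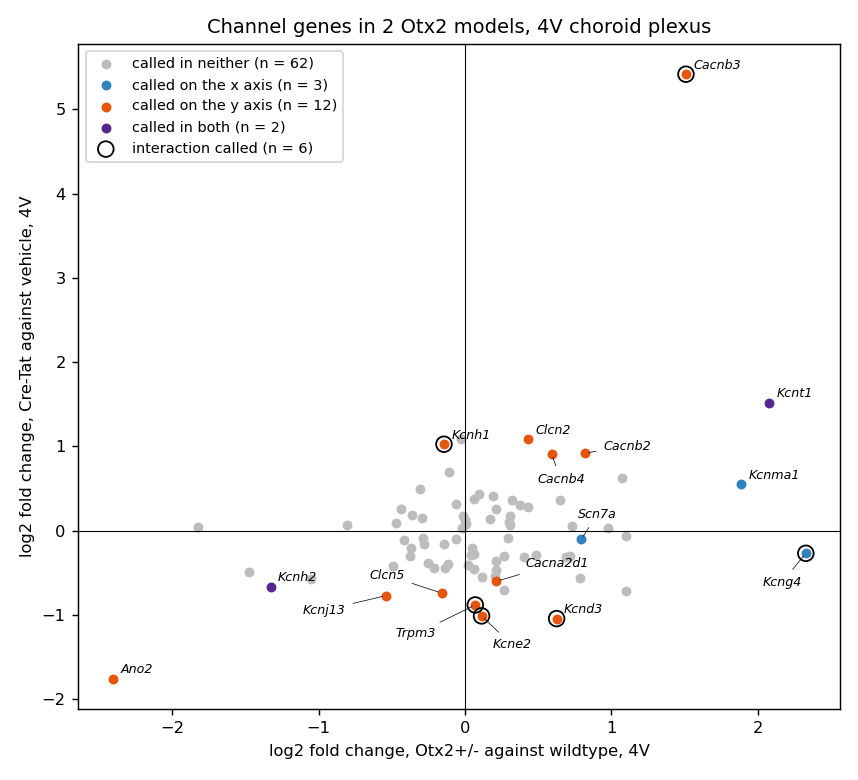
Log2 fold change of 79 channel genes in 4V ChP, Otx2+/- against wildtype on the x axis and Cre-Tat against vehicle on the y axis, coloured by call, with circles around the 6 genes called in the interaction. Kcnh2 and Kcnt1 are called on both axes with the same sign, while Kcng4 is called only on the x axis and Cacnb3 only on the y axis. On the x axis, Kcnt1 could not have passed the expression filter on the wildtype pools alone.

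The vehicle pools allow the channels of LV and 4V ChP to be compared within 1 model. Cacna2d3, Kcnab1, Cacna1h and Ano3 were 3.83- to 5.93-fold higher in LV, while Cacnb4, Cacnb1, Trpm5 and Kcng4 were 1.78- to 3.54-fold higher in 4V. Of 86 channel genes tested 13 passed in edgeR, 7 higher in LV and 6 lower, or 15.1% (8.14% and 6.98%), against 7.44% of all 14561 genes (3.46% higher in LV and 3.98% lower). Median log2 differences were 0.12 for channel genes and 0.01 for all genes.

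Kcnab1, a cytoplasmic beta subunit that speeds inactivation of Kv1 channels, was at 3.37 and 3.74 in vehicle LV and 0.571 and 0.683 in vehicle 4V (log2 difference 2.50 ± 0.24, adjusted p = 4.04e-05). Ano3, an anoctamin scramblase, was at 0.983 and 1.51 against 0.232 and 0.179 (2.57 ± 0.31, adjusted p = 0.000235). Cacna1h, a T-type calcium channel pore, was at 1.58 and 1.82 against 0.207 and 0.471 (2.36 ± 0.28, adjusted p = 0.000221), and Cacna2d3 at 6.50 and 5.06 against 1.64 and 1.35 (1.94 ± 0.20, adjusted p = 6.03e-05). The Cre-Tat LV pools, which this comparison did not use, held 4.12 and 2.56 for Kcnab1, 1.26 and 1.32 for Ano3, 1.498 and 1.962 for Cacna1h and 4.42 and 5.59 for Cacna2d3. In Cre-Tat 4V the values were 0.669 and 0.652, 0.2186 and 0.1202, 0.422 and 0.269, and 1.57 and 1.51. Exons of Kcnab1, Ano3, Cacna1h and Cacnb4 overlap A330015K06Rik, Muc15, Tpsg1 and A430018G15Rik on the other strand, in that order.

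Kcnd3 was at 4.14 and 4.69 in LV and 2.16 and 2.83 in 4V (0.82 ± 0.15, adjusted p = 0.00584), and Kcnt2, a second sodium-activated potassium channel, at 2.33 and 2.53 against 1.33 and 1.71 (0.68 ± 0.18, adjusted p = 0.0393). Scn4b, a beta subunit of sodium channels, had 53 and 74 counts in LV and 16 and 10 in 4V (1.53 ± 0.39, adjusted p = 0.0326). On the side of 4V, Cacnb4 was at 7.69 and 7.67 against 4.74 and 3.76 in LV (-0.85 ± 0.14, adjusted p = 0.00213), Cacnb1 at 2.20 and 2.15 against 1.22 and 1.23 (-0.83 ± 0.23, adjusted p = 0.0414) and Cacna2d1 at 5.44 and 6.57 against 4.01 and 3.84 (-0.61 ± 0.15, adjusted p = 0.0275). Trpm5, the calcium-activated channel of taste cells, was at 1.39 in both 4V pools against 0.610 and 0.585 (-1.22 ± 0.27, adjusted p = 0.0154). Trpm3 was at 579 and 583 against 457 and 342 (-0.54 ± 0.15, adjusted p = 0.0455), and Kcng4 had 21 and 23 counts in 4V and 13 and 8 in LV (-1.82 ± 0.51, adjusted p = 0.0453). Kcng4 could not have passed the expression filter on the LV pools alone. Kcne2 (-0.39 ± 0.16, adjusted p = 0.157), Kcnj13 (0.22 ± 0.12, adjusted p = 0.301) and Kcnk1 (0.22 ± 0.14, adjusted p = 0.373) did not pass.

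With 1 pool left out, 6 channel genes passed without vehicle 4V pool A, 6 without vehicle 4V pool B, 19 without vehicle LV pool A and 8 without vehicle LV pool B. Ano3, Cacna1h, Cacna2d3, Cacnb4 and Kcnab1 passed each time. The other 8 were lost at least once, with the highest adjusted p at 0.413 for Trpm3 (without vehicle LV pool B, log2 difference -0.33 in place of -0.54), 0.327 for Kcng4, 0.23 for Cacna2d1 and 0.195 for Scn4b (all without vehicle 4V pool B), 0.215 for Kcnt2 and 0.06 for Kcnd3 (without vehicle 4V pool A), and 0.161 for Cacnb1 and 0.0916 for Trpm5 (without vehicle 4V pool B). Endothelial markers were higher in LV in 3 of 6 tested and macrophage, fibroblast and oligodendrocyte markers in 1 each of 6, 5 and 4. Of 5 astrocyte markers 1 was higher and 1 lower, and no epithelial, mural or ependymal marker passed. The part of these cells in the channel differences was not tested.

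**Figure D5:**
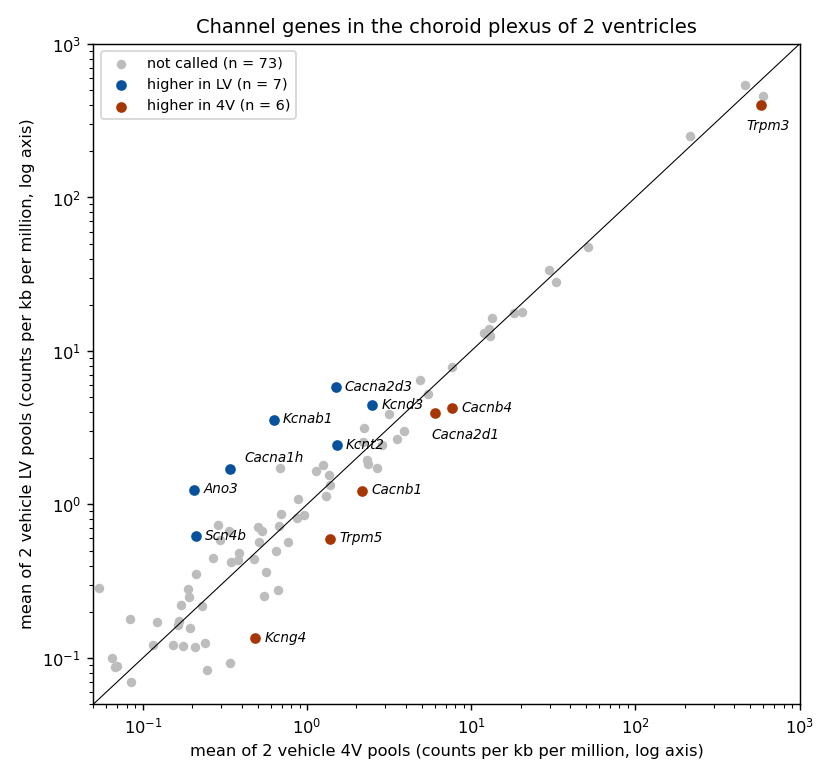
Mean level of the 86 tested channel genes in the 2 vehicle 4V pools (x axis) and the 2 vehicle LV pools (y axis), as CPM per kb on log axes, with the line of equal levels. The 7 genes called higher in LV lie above the line and the 6 called higher in 4V below it, and the abundant genes Kcne2, Kcnj13 and Kcnk1 lie near it.

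The neighbouring transport machinery was read from a list of 85 genes that the symbol rule does not cover: pumps, other chloride and cation channels, calcium release and entry channels, regulatory kinases and cotransporters. In LV 2 of 72 tested rose and 6 fell between Cre-Tat and vehicle, where 2.21% of all genes rose and 1.03% fell. In 4V 5 of 70 rose and 13 fell, where 5.7% of all genes rose and 4.98% fell, so that the count of rises is near that of all genes. In Otx2+/- 2 of 70 rose and 2 fell (1.78% and 1.75% of all genes), and in Otx2+/AA 1 of 72 rose (0.172% of all genes). Atp2b4, a plasma membrane calcium pump, fell in Cre-Tat LV, Cre-Tat 4V and Otx2+/- (-0.74 ± 0.16, -1.07 ± 0.14 and -0.70 ± 0.13), and Atp2b3, another of these pumps, in LV and 4V (-0.71 ± 0.16 and -0.90 ± 0.16). Clic3 rose and Lrrc8c, a subunit of volume-regulated anion channels, fell in both ventricles. The bicarbonate transporters Slc4a2 and Slc4a5 and the kinase gene Stk39 (SPAK), which phosphorylates chloride cotransporters, also fell in LV and 4V, Slc4a2 by 0.67 and 0.96 on the log2 scale. In 4V, Orai1 and Stim2, of store-operated calcium entry, fell, and none of the 14 genes tested for calcium release and entry, which also include receptors of intracellular stores, rose. Between ventricles, 6 of 70 were higher in vehicle LV (3.46% of all genes), among them the sodium leak channel gene Nalcn (1.81 ± 0.20) and Lrrc8c (1.26 ± 0.14), and Tmc6 was lower (3.98% of all genes).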

How the data were processed

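The authors deposited 22 tables of raw read counts per Ensembl transcript. Per the labels the libraries were stranded and made after depletion of ribosomal RNA, whereas the study's methods name a purification of polyadenylated RNA, and which was used is not settled here. Per the submitters' processing notes, bcl2fastq 1.8.4, Bowtie 0.12.9, SAMtools, HTSeq 0.5.3 and DESeq 1.8.3 were used with mm10. The strand setting of the counting is not given in the sources used here, and a read may count for several overlapping transcripts.

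The 2 runs of a conditional pool were summed by library number, giving 14 pools. Symbols came from GENCODE vM21 (82807 of 95533 transcripts, 89.46% of counts), and the transcript with most counts stood for its gene. Counts in each comparison were tested on all genes with edgeR 4.0.16 in R 4.3.3 (filterByExpr, TMM, quasi-likelihood test, Benjamini-Hochberg, threshold 0.05), without a block for the pool letter. The standard error is the log2 fold change divided by the root of F. Levels are counts per kb of that transcript per 1000000 TMM-scaled counts (CPM per kb). Alternatives were DESeq2 1.42.0, other scalings and filters, all groups of a run in 1 fit, sums over transcripts, a block, files as attached, and each pool left out. The test was first run on data simulated at the depth and spread of these pools. At a log2 fold change of 1 it recovered 69.1% of changed genes in LV and 75.5% in 4V. For Otx2+/-, Otx2+/AA and the ventricles it recovered 63.2%, 78.3% and 80.6%. False calls made up 8.94%, 5.35%, 8.67%, 8.76% and 2.17% of the genes called, in that order. In the simulation, the changed genes were drawn only from those above a floor on the mean count. The shares recovered therefore do not cover channel genes with few reads. Python 3.11.15, pandas 2.3.3, NumPy 2.4.6, SciPy 1.17.1 and matplotlib 3.10.9 were also used.

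Named genes were up to 15 called members with the largest change in each direction of each comparison, the 20 with the highest vehicle level, members with known roles in ChP epithelium, those called in an interaction, and Otx2. Members and lists were chosen with earlier results of these data known.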

Additional observations from a re-analysis of the deposited data

Results flagged for a closer look

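Of the channel genes, 6 responded differently in 4V in the Cre-Tat and the Otx2+/- model by a test of the difference itself (edgeR interaction of knockdown label and model, values as log2 fold change of Cre-Tat minus that of Otx2+/-). Cacnb3 differed by 3.90 and Kcnh1 by 1.16, both higher in Cre-Tat. Kcng4 differed by -2.61, Kcnd3 by -1.68, Kcne2 by -1.14 and Trpm3 by -0.97. All of these calls other than that of Cacnb3 depended on single pools. Model, strain, injection and sequencing run cannot be told apart in these differences.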

How the results depend on the processing

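Counts below are channel genes past the threshold. For most settings in this section the matching share of all genes is not given. The counts therefore describe only how far the calls depend on the processing. In Cre-Tat LV (9) there were 5 with total counts in place of TMM, all of them higher, 16 with no filter and 50 with files as attached. The 4V count (15) was 55 with files as attached. For Otx2+/- (5) there were 9 with all groups in 1 fit, and for Otx2+/AA (1) there were 2 by DESeq2, 3 with no filter and 0 with all groups in 1 fit. LV against 4V (13) gave 7 by DESeq2 and 22 with no filter. The interaction with ventricle (0) gave 3 with no filter and 23 as attached, and that with model (6) gave 10 and 31. Leaving out each pool gave 2 to 10 in Cre-Tat LV, 12 to 15 in Cre-Tat 4V, 2 to 11 in Otx2+/-, 1 to 5 in Otx2+/AA, 6 to 19 between ventricles, 0 to 0 and 2 to 6 in the interactions. The causes were not tested.

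Pool letters were not shown to pair the pools: deviations of same-lettered pools correlated at -0.128 in LV, 0.15 in 4V, 0.359 for Otx2+/-, 0.0771 for Otx2+/AA and 0.0744 between ventricles. With a replicate block the counts were 11, 22, 21, 3 and 21 in that order, and 0 and 6 in the interactions. A block with crossed letters, added after seeing the data, gave 15 in LV.

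Directions reversed only with files as attached, a grouping in which the 2 runs of a pool differed beyond sampling noise (chi-square per degree of freedom 21.1 to 37.3 in 8 pairs). Log2 fold changes were then -1.66 for Cacnb3, 0.50 for Clcn5, 1.25 for Kcnd3, -0.10 for Kcnh1, 0.21 for Kcnj13 and -0.013 for Otx2 in LV. In 4V they were -2.13 for Cacnb3, 0.54 for Clcn5, 0.67 for Kcnd1, -1.43 for Cacnb4, -0.77 for Clcn2, 0.53 for Kcnh2, 0.024 for Kcne2, 0.88 for Kcnd3, -0.71 for Cacnb2, -0.35 for Kcnh1, -0.61 for Kcnt1, 0.38 for Kcnj13 and -0.29 for Otx2. Between ventricles they were -0.03 for Cacna1h, -0.069 for Kcnab1, -0.42 for Kcnd3 and -0.20 for Kcnt2, and in the interaction with model -3.65 for Cacnb3, 0.24 for Kcnd3 and -0.22 for Kcnh1.

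Total counts moved the all-gene median (log2) by 0.174 in LV, 0.147 in 4V and -0.185 between ventricles, and genes higher among those called from 331 of 486 to 396 of 444, from 829 of 1554 to 1316 of 1742 and from 504 of 1083 to 252 of 1474. The channel genes between ventricles were then 6 higher and 12 lower.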
